A study of Mus musculus with 14 samples.

Results

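The 8 genes described here, Lin28a, Lin28b, Hmga2, Igf2bp1, Igf2bp2, Igf2bp3, Igf1r and Arid3a, are known from fetal blood formation and from the growth signalling that goes with it. They were taken by name, and all 8 were found on the array, among 20972 genes named there, through 12 of its 55681 non-control probes. Because the scanner files used here pair probes with RefSeq accessions and not with gene names, each probe was named by matching its accession to the RefSeq gene table. Of the 12 probes, 9 were well above background on at least 2 of 14 arrays and were tested, which covers every gene but Igf2bp1.

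Bone marrow of C57BL/6 mice was given to wild-type CD45.1+ recipients after lethal irradiation, and the floxed genes were deleted 4 weeks later through Cre-ERT2, a recombinase activated by tamoxifen-type ligands. Donors carried Cre-ERT2 alone (WT, so the controls carry the recombinase too), or with floxed alleles that gave Ezh2Δ/Δ (Ezh2-deleted), p53Δ/Δ (p53-deleted) or Ezh2Δ/Δp53Δ/Δ (double-deleted) cells. Ezh2 codes for the enzyme of PRC2, the Polycomb complex that represses genes by methylating histone H3, and p53, encoded by Trp53, is the stress-activated tumor suppressor. From recipient thymus at 3 months, CD4-CD8- cells were sorted into 3 successive stages on the way to T cells: DN1 with CD44 and no CD25, DN2 with both, and DN3 that had lost CD44 and kept CD25, with 1 array for each genotype and stage. The last 2 arrays held DN2-gated leukemic cells of 2 Ezh2Δ/Δp53Δ/Δ mice, numbered 13 and 19, with early T cell precursor acute lymphoblastic leukemia (ETP-ALL). The labels do not say whether cells of several recipients were pooled, they give neither age nor sex, and since no non-leukemic genotype and stage was measured on more than 1 array, the spread behind each p-value is what is left after genotype and stage are fitted as additive terms, with the spread between the 2 leukemias added in the leukemia comparison.

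LIN28A and LIN28B are RNA-binding proteins that block the maturation of let-7 microRNAs, and LIN28B marks fetal blood stem and progenitor cells, in which it favours fetal-type lymphocytes. Let-7 represses mRNAs that include Hmga2, Igf2bp1, Igf2bp2, Igf2bp3, Igf1r and Arid3a, so that these genes tend to be high where LIN28 is high and low in adult cells. The IGF2BP proteins bind and stabilise mRNAs, Igf2 mRNA among them, HMGA2 is a chromatin protein of self-renewing fetal stem cells, IGF1R is the receptor of the insulin-like growth factors, and ARID3A is a transcription factor of fetal B cell development.

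The promoter windows of the 3 members that were higher in double-deleted than in WT cells are printed because PRC2 acts at CpG-rich promoters and because CACGTG, the E-box that MYC family proteins bind, is the motif that was searched on both strands (it reads the same on each). RefSeq on GRCm38.p6 gave a window, from 250 bases before to 50 bases after the start, for 6 of 8 members. The capitals mark CACGTG, and the windows are Igf2bp3 at chr6:49214905-49215204 (minus strand), Lin28b at chr10:45470152-45470451 (minus strand) and Igf1r at chr7:67952007-67952306 (plus strand).
Igf2bp3: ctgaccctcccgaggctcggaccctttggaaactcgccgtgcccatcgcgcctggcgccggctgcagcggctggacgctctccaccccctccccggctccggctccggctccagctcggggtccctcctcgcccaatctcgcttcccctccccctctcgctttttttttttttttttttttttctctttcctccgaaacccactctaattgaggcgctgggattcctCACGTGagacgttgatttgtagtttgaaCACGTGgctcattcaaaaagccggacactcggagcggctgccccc
Lin28b: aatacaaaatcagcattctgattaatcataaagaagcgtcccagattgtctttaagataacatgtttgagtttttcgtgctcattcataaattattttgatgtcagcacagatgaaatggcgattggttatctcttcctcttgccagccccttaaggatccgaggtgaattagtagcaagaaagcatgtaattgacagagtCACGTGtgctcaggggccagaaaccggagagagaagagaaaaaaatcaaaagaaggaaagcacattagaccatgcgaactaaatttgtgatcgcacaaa
Igf1r: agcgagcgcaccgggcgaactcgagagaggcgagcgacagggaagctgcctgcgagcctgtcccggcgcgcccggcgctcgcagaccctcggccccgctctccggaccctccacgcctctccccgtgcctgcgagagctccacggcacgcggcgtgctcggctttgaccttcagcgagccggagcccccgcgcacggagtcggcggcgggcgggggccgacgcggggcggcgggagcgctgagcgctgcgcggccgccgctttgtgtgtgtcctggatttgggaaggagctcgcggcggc
The Igf2bp3 window held 2 CACGTG motifs and the Lin28b window held 1. CACGTG was found in 7.15% of the 32851 windows of this length, and at least 2 copies in 0.594%. The windows of Igf1r, Igf2bp2, Hmga2 and Lin28a held none. The Igf1r window held 48 CG dinucleotides, more than 98.8% of windows did, and Igf2bp2 held 47. Igf2bp3 held 25, against a median of 7, while Lin28b, with 8, lay close to that median. Among the 3 printed windows, those of Igf1r and Igf2bp3 were therefore CpG-rich and that of Lin28b was not. No binding or histone mark was measured, so these matches describe sequence only.

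Values below are log2 signal relative to each array's 75th percentile, so 0 is the 75th percentile itself; they compare arrays for a given probe and not different probes. A gene was called when the Benjamini-Hochberg adjusted p over all 31499 tested probes, from limma, was under 0.05. ETP-ALL minus double-deleted DN2 sets the leukemias against the level fitted for double-deleted DN2 from additive genotype and stage terms, not against that single array. The 14 arrays lay on 4 slides. Slide 1 held WT DN1, DN2 and DN3 and double-deleted DN2 and DN3, slide 2 held the 3 Ezh2-deleted and the 3 p53-deleted arrays, slide 3 held double-deleted DN1 and slide 4 both leukemias. The 75th percentile of signal was 70.5 to 141 on slide 2 and 299 to 589 on the other 8 arrays, and 41.3% to 51.5% of spots were well above background. The comparison of Ezh2-deleted or p53-deleted cells with WT, and the interaction of the deletions, therefore cannot be told apart from slide, whereas the effect of Ezh2 loss averages a difference within slide 2 (Ezh2-deleted against p53-deleted) and one mostly within slide 1 (double-deleted against WT).

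The Trp53 probe checked the labels. It was well above background on all WT and Ezh2-deleted arrays, at -0.02 to 1.48, was not above it on any p53-deleted array, and was below every WT value but still above background on all 3 double-deleted arrays, at -4.05 to -1.10. In the leukemias, at -6.06 to -4.04, it was above background on 1 of 2 arrays. The only Ezh2 probe was well above background on every array (2.23 to 4.26); whether it lies in the deleted part is not stated in what was used, and it was taken as no check. Xist signal was clear of background only on the 3 Ezh2-deleted arrays, and the Y-linked Ddx3y, Eif2s3y and Uty on all arrays except those 3. Sex therefore differed between Ezh2-deleted cells and all other groups, including in every comparison that uses them, but not between double-deleted and WT cells. All 15 early T cell markers were well above background on the 12 non-leukemic arrays. The NK cell markers summed to 23.4 to 206 times the scaling level in DN1, against 0.753 to 2.93 in DN3. In bulk samples, fewer cells of a type and less RNA per cell cannot be told apart.

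**Figure D1:**
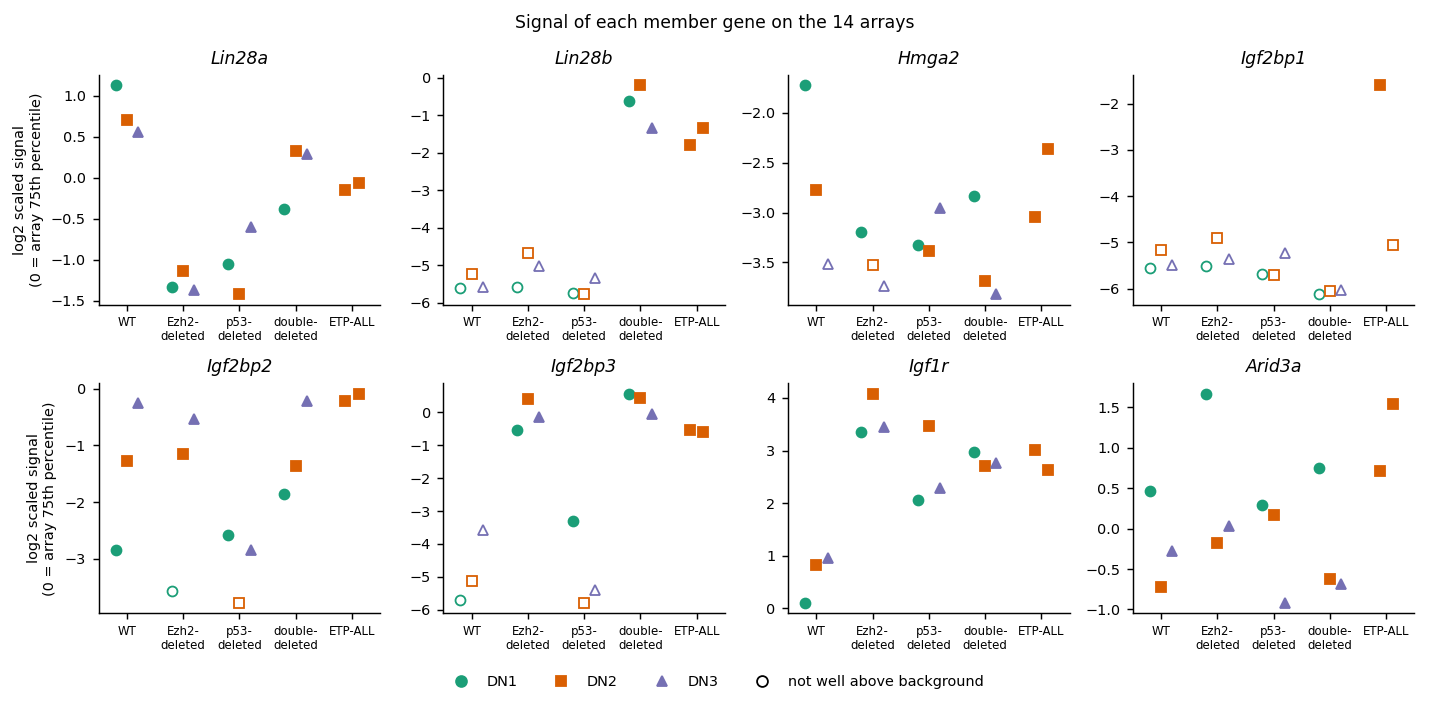
Log2 scaled signal of the brightest probe of each of the 8 genes (vertical axis, 0 at the array's 75th percentile) by genotype or leukemia, with marker shape and colour for stage and open markers where the probe was not well above background. Igf2bp3 is high on every array that lost Ezh2, Lin28b only on the 3 double-deleted arrays and both leukemias, and Igf1r lowest on the 3 WT arrays.

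Lin28b, the LIN28 factor of fetal hematopoiesis, was detected only where both Ezh2 and p53 had been deleted. Its signal on the double-deleted arrays was -0.62 in DN1, -0.19 in DN2 and -1.35 in DN3, and -1.80 and -1.34 in the leukemias of mice 13 and 19. The other 9 arrays did not clear background: -5.60, -5.23 and -5.57 in WT DN1, DN2 and DN3; -5.58, -4.67 and -5.02 in Ezh2-deleted; -5.74, -5.77 and -5.34 in p53-deleted cells. The highest of these 9 values lay below the lowest of the 5 double-deleted and leukemic values, so the groups did not overlap at any stage.

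Against the WT arrays, where the probe had only a bound, the double-deleted mean of -0.72 ± 0.58 (SD, n = 3) was at least 6.95-fold higher. The bound is the ratio of the double-deleted mean to the mean of a reference level over the WT arrays. That level was the lowest signal on an array that still counted as above background, or the probe's own signal where that was higher. By the same measure the double-deleted mean was at least 6.02-fold above Ezh2-deleted and at least 7.26-fold above p53-deleted cells. The leukemias were at least 3.85-fold above WT. The fitted change from WT to double-deleted cells was 4.74 ± 0.31 (log2, SE; limma adjusted p = 0.000206), a comparison that called 6.99% of all probes, and 3.6% as higher. Lin28b, Igf2bp3 and Igf1r were the 3 of 9 member probes called there, all higher. The Lin28b probe passed the detection filter only through double-deleted and leukemic arrays, where it was high, so its call is not independent of the filter. It was also called with no filter on dim probes. The 4.52 ± 0.44 interaction of the deletions (limma adjusted p = 7.34e-05) stood against a background of 44.7% of probes called; that contrast cannot be told apart from slide. Within slide 1, from which double-deleted DN1 is missing, double-deleted exceeded WT by 5.04 in DN2 and 4.22 in DN3, and the limma adjusted p was 0.0263. Normexp background correction with quantile normalization gave a Lin28b change of 1.72 ± 0.17 from WT to double-deleted cells (limma adjusted p = 0.00104), less than the bound on the processed signal.

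Neither single deletion gave a comparable signal. Ezh2-deleted minus WT was 0.38 ± 0.31 (limma adjusted p = 0.378) and p53-deleted minus WT -0.15 ± 0.31 (limma adjusted p = 0.733), both between arrays below background. The averaged effects, 2.64 ± 0.22 for Ezh2 loss (limma adjusted p = 0.000443) and 2.11 ± 0.22 for p53 loss (limma adjusted p = 0.0022), were thus means of a large and a near-zero difference. Detection on all 5 double-deleted and leukemic arrays and on none of the other 9 was shared by 42 probes, 0.133% of those tested.

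The second Lin28b probe was not above background on any array. Its values were -3.87, -4.05 and -4.70 in double-deleted DN1, DN2 and DN3, -4.39 and -4.38 in the leukemias, and -5.56 to -4.64 on the other 9 arrays. The double-deleted and leukemic values were above all of those 9 except double-deleted DN3, which lay below WT DN1 at -4.64. Both probes carry the same RefSeq accession.

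Lin28a, the paralog known from embryonic stem cells, followed a different course. Its probe was well above background on all 14 arrays. The values were 1.13, 0.70 and 0.56 in WT DN1, DN2 and DN3, -1.33, -1.14 and -1.37 in Ezh2-deleted, -1.05, -1.42 and -0.60 in p53-deleted and -0.38, 0.32 and 0.29 in double-deleted cells, with the leukemias at -0.15 and -0.06. All 6 arrays of slide 2 lay below all 8 arrays of the other slides.

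Lin28a was lower than in WT by -2.08 ± 0.30 in Ezh2-deleted (limma adjusted p = 0.00115) and by -1.82 ± 0.30 in p53-deleted cells (limma adjusted p = 0.002), where 17.4% and 19.6% of all probes were called lower. These comparisons are between slides. Within slides the probe moved less: Ezh2-deleted minus p53-deleted was -0.27 in DN1, 0.28 in DN2 and -0.77 in DN3, and double-deleted minus WT on slide 1 was -0.38 in DN2 and -0.27 in DN3. Neither Ezh2 loss (-0.49 ± 0.21, limma adjusted p = 0.249) nor p53 loss (-0.23 ± 0.21, limma adjusted p = 0.542) was called for Lin28a.

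Igf2bp3, the IGF2BP member known as an oncofetal protein and as a partner of LIN28B in fetal-type B cell development, was the member with the widest separation by Ezh2. It was at -0.54, 0.39 and -0.16 in Ezh2-deleted DN1, DN2 and DN3 and at 0.56, 0.42 and -0.04 in double-deleted cells. In WT cells it was not above background, at -5.69, -5.11 and -3.56. In p53-deleted cells it was above background in DN1, at -3.31, but not in DN2 or DN3, at -5.79 and -5.40. Every array that lost Ezh2 lay above every array that kept it, at each stage and with or without p53; 249 probes, 0.791% of those tested, separated the arrays in that way.

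Ezh2 loss raised Igf2bp3 by 4.91 ± 0.51 (log2, SE; limma adjusted p = 0.00133), in a comparison that called 3.79% of probes and 2.6% as higher. Of the 9 member probes, 3 were called there, all higher: Igf2bp3, Lin28b and Igf1r. The Igf2bp3 probe passed the detection filter only through arrays that lost Ezh2, since just 1 array that kept Ezh2 was above background. It was also called with no filter on dim probes. Within slide 2 Ezh2-deleted exceeded p53-deleted cells by 2.77 in DN1, 6.17 in DN2 and 5.23 in DN3, and within slide 1 double-deleted exceeded WT by 5.53 in DN2 and 3.53 in DN3. Against the WT bound the double-deleted mean of 0.31 ± 0.31 (SD, n = 3) was at least 14.1-fold higher and the Ezh2-deleted mean of -0.11 ± 0.47 (SD, n = 3) at least 10.5-fold.

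Loss of p53 left no called difference in Igf2bp3 (0.19 ± 0.51, limma adjusted p = 0.857), nor was an interaction called (0.47 ± 1.01, limma adjusted p = 0.725). The double-deleted and Ezh2-deleted ranges overlapped. Xist and the Y-linked genes also differ between Ezh2-deleted cells and every other group, though not between double-deleted and WT cells, and their part in the Ezh2 result was not tested. Double-deleted minus WT was 5.10 ± 0.71 (limma adjusted p = 0.00555); within slide 1 alone, with 2 double-deleted arrays, the limma adjusted p was 0.0608, and normexp with quantile normalization gave 2.19 ± 0.23 (limma adjusted p = 0.00128), less than the bound. Both leukemias kept a signal above background, -0.54 and -0.59, at least 7.66-fold above WT. They did not differ detectably from the fitted level of double-deleted DN2 (-0.71 ± 0.84, limma adjusted p = 0.696). On the 3 Ezh2-deleted arrays Igf2bp3 spanned less than 1 log2 unit while the summed NK cell markers ranged from 0.753 to 206, and the B cell markers from 21.0 to 60.3; their part in the result was not tested.

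**Figure D2:**
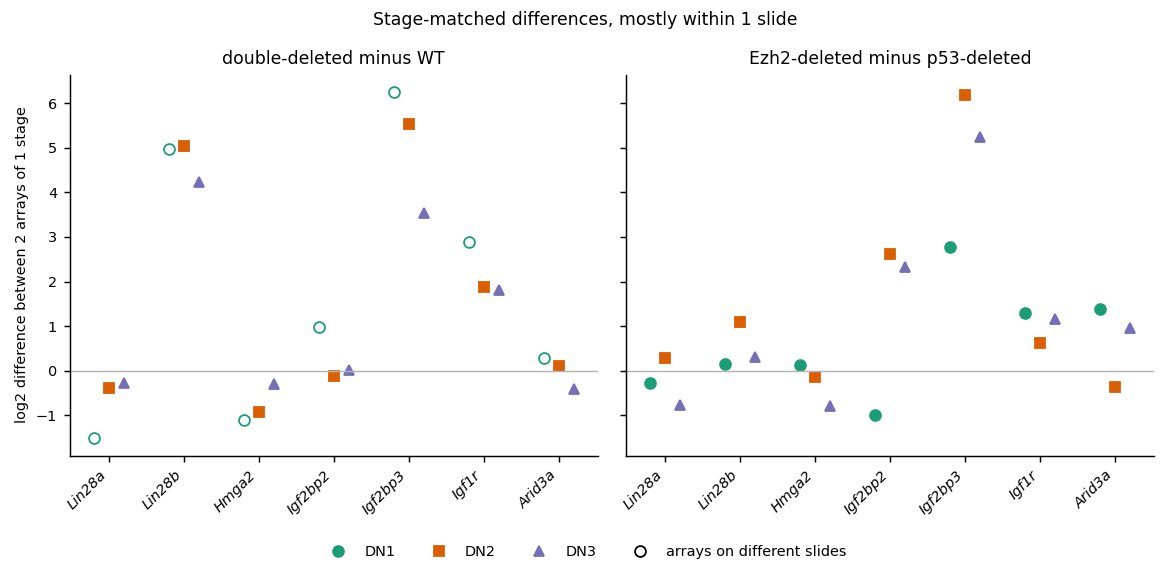
Log2 difference between 2 arrays of the same stage (vertical axis) for the 7 tested genes, double-deleted minus WT on the left and Ezh2-deleted minus p53-deleted on the right; filled markers pair arrays of 1 slide and open markers arrays of different slides. Igf2bp3 is above 2.7 in all 6 pairs, Lin28b above 4.2 in the 3 left pairs, and Igf1r above 0 in all 6.

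Igf2bp1, the paralog best known from fetal tissues, was not above background on 13 of 14 arrays, where it lay between -6.12 and -4.90. The exception was the leukemia of mouse 13, at -1.60; the leukemia of mouse 19 was at -5.06. With only 1 array above background the probe was not tested, and no error can be given for that value.

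Igf2bp2, the paralog that adult tissues keep, was measured by 2 probes with different patterns. The brighter probe was at -2.85, -1.27 and -0.25 in WT DN1, DN2 and DN3, at -1.86, -1.37 and -0.22 in double-deleted cells, with the leukemias at -0.21 and -0.09. In Ezh2-deleted cells it was at -3.56 in DN1, where background was not exceeded, then -1.16 and -0.53. In p53-deleted cells it was at -2.58 in DN1, not above background at -3.78 in DN2, and -2.85 in DN3. The values were ordered DN1, DN2, DN3 from low to high in WT, Ezh2-deleted and double-deleted cells and not in p53-deleted cells.

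The second probe, above background on all 14 arrays, was at -3.42, -2.46 and -1.63 in WT, -2.66, -1.20 and -0.69 in Ezh2-deleted, -2.79, -2.37 and -2.88 in p53-deleted and -3.01, -3.23 and -1.99 in double-deleted cells, with the leukemias at -1.75 and -1.51. The probes disagreed on p53-deleted minus WT (-1.61 ± 0.61 and -0.18 ± 0.42) and on Ezh2-deleted minus WT (-0.30 ± 0.61 and 0.99 ± 0.42). Neither was called in any of the 9 comparisons. For Ezh2 loss the brighter probe gave 0.81 ± 0.43 (limma adjusted p = 0.34), and without p53-deleted DN1 it was called at 1.26 ± 0.26 (limma adjusted p = 0.0385); without that array DN2 minus DN1 was also called for it, at 1.49 ± 0.33 (limma adjusted p = 0.035, against 0.82 ± 0.53 and 0.403 with all 12 arrays).

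Hmga2, the let-7 target that codes for the HMGA2 chromatin protein, was called in none of the 9 comparisons. Its brighter probe was at -1.72 and -2.77 in WT DN1 and DN2, and in WT DN3 not above background at -3.52. Ezh2-deleted DN1 was at -3.20, with DN2 and DN3 not above background at -3.53 and -3.74. The p53-deleted values were -3.33, -3.39 and -2.95, the double-deleted values -2.83, -3.69 and -3.82, and the leukemias -3.04 and -2.36. The highest value was thus that of WT DN1. Of the arrays with Lin28b signal, the non-leukemic double-deleted ones had none above -2.83, and the leukemia of mouse 19 was at -2.36. Ezh2 loss gave -0.52 ± 0.25 (limma adjusted p = 0.289) and double-deleted minus WT -0.78 ± 0.35 (limma adjusted p = 0.199). The other Hmga2 probe was not above background on any array.

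Igf1r, the growth factor receptor of the group, was above background on every array and lowest in WT. The values were 0.10, 0.82 and 0.96 in WT DN1, DN2 and DN3, 3.35, 4.08 and 3.44 in Ezh2-deleted, 2.05, 3.46 and 2.28 in p53-deleted and 2.98, 2.70 and 2.77 in double-deleted cells, with the leukemias at 3.01 and 2.62. All 9 arrays of the deleted genotypes lay above all 3 WT arrays, as did 3.14% of tested probes. By mean, Ezh2-deleted cells were highest at 3.63 ± 0.40 (SD, n = 3), followed by double-deleted at 2.82 ± 0.15, the leukemias at 2.81, p53-deleted at 2.60 ± 0.75 and WT at 0.63 ± 0.46; the double-deleted, leukemic and p53-deleted ranges overlapped, and the Ezh2-deleted range overlapped that of p53-deleted cells.

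Double-deleted minus WT was 2.19 ± 0.33 for Igf1r (limma adjusted p = 0.00809), a 4.56-fold higher signal. Within slide 1 the difference was 1.88 in DN2 and 1.80 in DN3, with a limma adjusted p of 0.0626. Averaged over p53 status, Ezh2 loss raised Igf1r by 1.61 ± 0.24 (limma adjusted p = 0.00751). Within slide 2 Ezh2-deleted exceeded p53-deleted cells by 1.30, 0.63 and 1.16 in DN1, DN2 and DN3. Across slides, double-deleted minus p53-deleted was 0.93, -0.75 and 0.49 at these stages, against 3.25, 3.26 and 2.48 for Ezh2-deleted minus WT. The average thus joins a large difference and one without a steady sign. Loss of p53 was not called (0.58 ± 0.24, limma adjusted p = 0.16). In p53 loss, where 7.31% of probes were called, Lin28b was the only one of the 9 member probes called.

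The single deletions against WT, both across slides, gave 3.00 ± 0.33 for Ezh2-deleted (limma adjusted p = 0.000259) and 1.97 ± 0.33 for p53-deleted cells (limma adjusted p = 0.00223), and the interaction was -2.78 ± 0.47 (limma adjusted p = 0.00168). In these contrasts 33.1%, 35.6% and 44.7% of all probes were called, against 3, 2 and 3 of 9 member probes, shares near or below that background. The share of Igf1r's difference that goes with slide cannot be told apart from the single deletions.

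**Figure D3:**
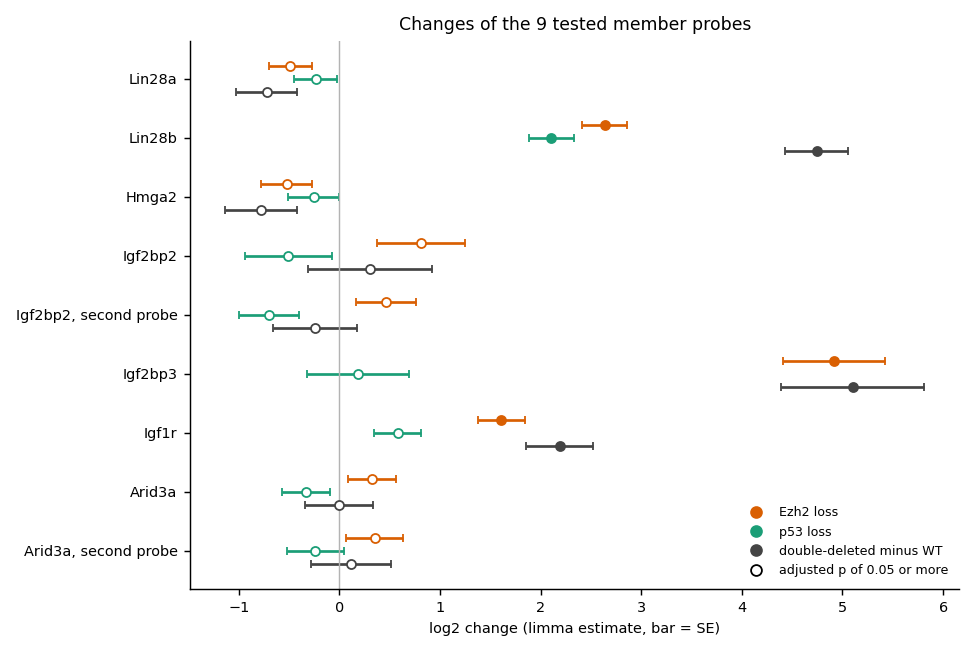
Estimated log2 change (horizontal axis) with its SE for the 9 tested probes in Ezh2 loss, p53 loss and double-deleted minus WT; filled markers have an adjusted p under 0.05. Igf2bp3 at 4.91, Lin28b at 2.64 and Igf1r at 1.61 were called for Ezh2 loss, only Lin28b at 2.11 for p53 loss.

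Arid3a was called in no comparison, though its mean was higher in DN1 cells and in the leukemias than in DN2 cells by both probes. The brighter of its probes was at 0.46, 1.67, 0.29 and 0.75 in DN1 cells that were WT, Ezh2-deleted, p53-deleted and lastly double-deleted. In DN2 cells of the same genotypes it was at -0.72, -0.18, 0.17 and -0.62, and in DN3 cells at -0.28, 0.03, -0.92 and -0.69. The leukemias, sorted from the DN2 gate, were at 0.71 and 1.54. For this probe each DN1 value was above the DN2 and DN3 values of its genotype, and both leukemias were above all 4 DN2 values. The second probe was at -0.87, 0.13, -1.27 and -0.41 in DN1, -1.94, -1.78, -1.11 and -1.68 in DN2 and -1.49, -1.57, -2.61 and -1.85 in DN3 cells of those genotypes in the same order, with the leukemias at -0.56 and 0.11. By that probe p53-deleted DN1 lay below p53-deleted DN2, and the other 3 genotypes had DN1 highest.

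Neither difference passed the threshold. DN2 minus DN1 was -1.13 ± 0.29 (limma adjusted p = 0.115) and -1.02 ± 0.35 (limma adjusted p = 0.175) for the 2 probes, in a comparison that called 1.31% of probes and none of the 9 member probes. Without p53-deleted DN2 both probes were called, at -1.46 ± 0.23 (limma adjusted p = 0.0121) and -1.43 ± 0.25 (limma adjusted p = 0.0181), and without p53-deleted DN1 the brighter probe was, at -1.31 ± 0.31 (limma adjusted p = 0.0418). ETP-ALL minus double-deleted DN2 was 1.65 ± 0.44 (limma adjusted p = 0.092) and 1.34 ± 0.49 (limma adjusted p = 0.198), and without p53-deleted DN2 it was 1.87 ± 0.35 (limma adjusted p = 0.0298) and 1.61 ± 0.35 (limma adjusted p = 0.0499).

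ARID3A is known from B cells, and markers of other cell types also differed by stage: of 8 B cell markers, 6 to 7 were above background in DN1 and 2 to 4 in DN2 and DN3. Their summed signal was 7.41 to 60.3 in DN1, highest in Ezh2-deleted DN1, which also had the highest Arid3a value, against 5.55 to 21.0 in DN2 and 5.54 to 28.0 in DN3; in WT it ran the other way, from 10.2 in DN1 to 11.3 in DN2 and 12.03 in DN3. The NK cell markers, 6 of 8 called lower in DN2 than in DN1, summed to 23.4 to 206 in DN1, 1.81 to 20.7 in DN2 and 8.33 and 23.7 in the leukemias. The myeloid markers summed to 5.07 to 80.9 in DN1, again highest in Ezh2-deleted DN1, and to 2.22 to 9.09 in DN3. In the leukemias the sums were 6.01 and 11.6 for B cell and 5.43 and 6.17 for myeloid markers. The 7 dendritic cell markers had a median change of -1.64 in DN2 minus DN1 and 1.19 in ETP-ALL minus double-deleted DN2. None of them was called, in comparisons that called 1.31% and 2.28% of all probes. Their sums were 177 to 447 in DN1, 186 to 405 in DN2, and 389 and 425 in the leukemias. The part of all these markers in the Arid3a values was not tested.

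No member probe was called in the leukemias against the fitted level of double-deleted DN2 cells, where 2.28% of all probes were called by limma, 718 in number (5708 at an unadjusted p under 0.05). The fitted changes can differ from the arrays. For Igf1r the double-deleted DN2 array was at 2.70 and the leukemias at 3.01 and 2.62, though the fitted change was negative. Lin28b was -1.11 ± 0.38 (limma adjusted p = 0.171), Igf1r -0.35 ± 0.40 (limma adjusted p = 0.687), Hmga2 0.89 ± 0.44 (limma adjusted p = 0.324) and Igf2bp2 1.04 ± 0.72 and 1.07 ± 0.49 by its probes (limma adjusted p = 0.477 and 0.292). With 2 leukemic arrays on a slide of their own, leukemia and slide cannot be told apart. DN3 minus DN2 called none of the member probes and 0.0254% of all probes by limma, 8 in number (2007 at an unadjusted p under 0.05).

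Of 16 genes that make or turn over let-7, all tested, 1 was called higher with Ezh2 loss and none lower, against 3.79% of all probes called. That gene was Dicer1, the endonuclease that cuts microRNA hairpins, at 1.22, 1.76 and 1.67 in Ezh2-deleted DN1, DN2 and DN3 against -0.06, 0.65 and 0.36 in p53-deleted cells on the same slide, a change of 0.93 ± 0.15 (limma adjusted p = 0.0109). Double-deleted minus WT called none of the 16 and 6.99% of all probes, with a median of -0.10 for the list and for all probes. In the contrasts that cannot be told apart from slide more were called: 4 higher and 3 lower in Ezh2-deleted minus WT, 1 and 3 in p53-deleted minus WT, and 3 and 4 in the interaction. These contrasts called 33.1%, 35.6% and 44.7% of all probes, so the counts are not read as a result about the list. The mature let-7 microRNAs were not measured.

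Of 30 let-7 target genes on the array, 29 were tested. With Ezh2 loss, where 3.79% of all probes were called, 2 were called higher and 1 lower, and the list's median was 0.29 against -0.03 for all probes. Those higher were Pbx3, a homeobox partner of HOX proteins, at 2.91 ± 0.50 (limma adjusted p = 0.0158), and Nr6a1, a nuclear receptor of embryonic cells, at 1.35 ± 0.18 (limma adjusted p = 0.00546). The lower gene was Ccnd1, cyclin D1, at -1.94 ± 0.40 (limma adjusted p = 0.0317). Pbx3 was not above background in WT DN2 and DN3, at -5.50 and -4.78, nor Ccnd1 in Ezh2-deleted DN2 and DN3, at -3.71 and -4.32. The fitted sizes of both genes rest partly on such values. On slide 2 Nr6a1 was at -2.31, -2.73 and -2.13 in Ezh2-deleted DN1, DN2 and DN3. In p53-deleted cells it was higher at each stage, at -1.75, -2.28 and -1.50. Its average for Ezh2 loss thus joins a fall within slide 2 with a larger rise from WT values below background. Pbx3 on slide 2 was at 0.69, 0.85 and 0.29 in Ezh2-deleted and 0.63, -0.47 and 0.14 in p53-deleted cells. Double-deleted minus WT called 3 higher, among them Pbx3 (5.31) and Nr6a1 (at least 2.21-fold, against WT arrays below background), and 1 lower, Hic2 (-1.13), a repressor of Bcl11a. That comparison called 6.99% of all probes.

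Pbx3 and Nr6a1 also carried signal in the cells without Lin28b. Nr6a1 was not above background in WT, at -5.76, -5.39 and -5.73, and was at -2.31, -2.73 and -2.13 in Ezh2-deleted, -1.75, -2.28 and -1.50 in p53-deleted and -2.62, -2.30 and -2.19 in double-deleted cells. It was thus above background with either deletion as well as with both, unlike Lin28b.

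The IGF axis, 20 genes on the array and 16 tested, had none called with Ezh2 loss (median 0.21 against -0.03). That comparison called 3.79% of all probes, so the count is not read as a result about the list. Loss of p53 raised 2, in a comparison that called 7.31% of all probes. Irs1, the adaptor that IGF1R phosphorylates, was not above background in WT at -5.52, -5.14 and -4.28 and was at 1.19, -0.90 and -0.02 in p53-deleted and -0.02, 0.36 and 0.39 in double-deleted cells. In Ezh2-deleted DN1 and DN2 it was not above background either, at -5.47 and -3.19, but in DN3 it was, at -2.03, and the leukemias were at 2.66 and -2.40. The fitted change with p53 loss was 4.44 ± 0.53 (limma adjusted p = 0.00377), mostly against values below background. Against the WT bound, p53-deleted cells were at least 12.2-fold and double-deleted cells at least 13.6-fold higher. Irs1 passed the detection filter only through arrays that lost p53, since just 1 array that kept p53 was above background. Igfbp4, which codes for an IGF-binding protein, changed by 1.48 ± 0.37 (limma adjusted p = 0.0489). Double-deleted minus WT called Irs1 alone among them (limma adjusted p = 0.00633), and 6.99% of all probes. The leukemias were called higher for the binding-protein genes Igfbp6 (3.95 ± 0.72, limma adjusted p = 0.023) and Igfals (limma adjusted p = 0.0459), with 2.28% of all probes called. Igfals was not above background in double-deleted DN2, which makes the leukemias at least 3.42-fold higher. It was above background only in the 2 leukemias and passed the detection filter only through them, so its call is not independent of the filter.

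Igf2, the fetal growth factor whose mRNA gave the IGF2BP family its name, was at 1.45 and 1.79 in double-deleted DN2 and DN3 and at 1.83 and 2.43 in the leukemias. It was above background but low in WT DN1 (-1.86), p53-deleted DN3 (-1.49) and double-deleted DN1 (-1.77), and not above background on the other 7 arrays, at -5.42 to -3.34. Double-deleted minus WT did not pass (3.54 ± 1.11, limma adjusted p = 0.0864). The interaction did (6.42 ± 1.57, limma adjusted p = 0.0101), in the contrast that cannot be told apart from slide. The 5 double-deleted and leukemic arrays that carried Lin28b and Igf2bp3 were thus above background for Igf2 as well, but so were 2 arrays without Lin28b.

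Of the 14 imprinted growth and embryonic genes on the array, Igf2 among them, 6 were tested. Double-deleted minus WT called 2 higher: Plagl1, a zinc-finger regulator of imprinted genes, at 6.01 ± 0.86 (limma adjusted p = 0.00592), and the cell cycle inhibitor gene Cdkn1c at 3.21 ± 0.23 (limma adjusted p = 0.000256). That comparison called 6.99% of all probes. Cdkn1c was at -1.58, -1.75 and -1.67 in WT, 0.02, -0.41 and -0.37 in Ezh2-deleted, 0.63, 1.22 and 0.93 in p53-deleted and 1.60, 1.62 and 1.43 in double-deleted cells. Bcl11a, whose protein represses fetal globin and is known to be lowered by LIN28B, was 1.53 ± 0.29 higher with Ezh2 loss (limma adjusted p = 0.0251), -2.69 ± 0.29 with p53 loss (limma adjusted p = 0.00267), and was called lower in the leukemias than in double-deleted DN2 (limma adjusted p = 0.00231). The first 2 sizes rest partly on p53-deleted DN2 and DN3, where Bcl11a was not above background, at -3.38 and -3.25. WT was at 0.74, 2.1 and 0.55 and Ezh2-deleted at 1.2, 1.55 and 0.55, so these ranges overlapped. The average for Ezh2 loss thus joins a near-zero difference with a large one between double-deleted and p53-deleted cells. An interaction was also called (3.12 ± 0.59, limma adjusted p = 0.0029), in the contrast that cannot be told apart from slide. In double-deleted cells, which had Lin28b signal, Bcl11a mRNA was above background at 0.53, -0.43 and -0.20. In the leukemias it was not, at -5.87 and -4.58, at least 8.47-fold lower than in double-deleted DN2. BCL11A protein was not measured. Among 10 PRC2 genes none was called with Ezh2 loss, where 3.79% of all probes were called. Phf19 alone was called in double-deleted minus WT (1.29 ± 0.31, limma adjusted p = 0.0429), where 6.99% were. Both counts lie near those shares and are not read as a result about the list.

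**Figure D4:**
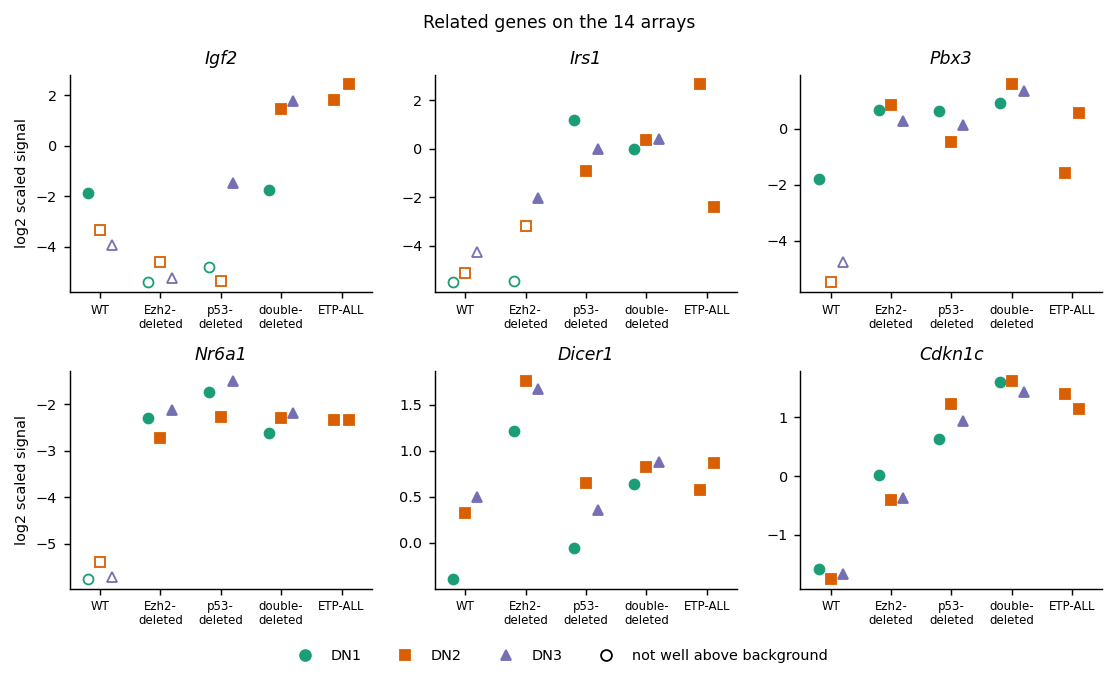
Log2 scaled signal (vertical axis) of 6 related genes on the 14 arrays by genotype or leukemia, with marker shape for stage and open markers where not well above background. Nr6a1 and Pbx3 are high in all deleted genotypes, Irs1 above -1 on the 6 non-leukemic arrays without p53 and at 2.66 and -2.40 in the leukemias, and Igf2 highest in double-deleted DN2 and DN3 and both leukemias.

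Over the 14 arrays, 12943 named genes were ranked by Pearson correlation with each member, as a description, since the arrays share genotypes, stages and slides. Closest to Lin28b were Podxl (0.952), which codes for the sialomucin podocalyxin, Shroom2 (0.948), an actin-binding protein gene, and Gli3 (0.945), a Hedgehog pathway transcription factor gene, each above background on 5 arrays. Closest to Igf2bp3 were Fstl1 (0.958), Fam135a (0.949) and Macrod2 (0.949); Fstl1, a secreted follistatin-like protein gene, averaged -5.37 in WT, -4.88 in p53-deleted, -1.24 in Ezh2-deleted and -0.78 in double-deleted cells. Igf1r was closest to Pex11a (0.94), Ptpdc1 (0.935) and F11r (0.923). Closest to Lin28a were Lypd5 (0.98), Samd10 (0.976) and Krtap5-3 (0.974), each with lower means in Ezh2-deleted and in p53-deleted cells, the arrays of slide 2, than in the other groups.

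The remaining members had neighbours at lower or similar correlations. Igf2bp2 was closest to Frmd4a (0.941), Bpnt2 (0.935) and Abcb8 (0.931), Arid3a to Adgrb2 (0.926), Nlrc5 (0.924) and Srsf12 (0.919), and Hmga2 to Epsti1 (0.839), Sybu (0.83) and 6330407A03Rik (0.819). Between members, the correlation was 0.69 for Lin28b with Igf2bp3, 0.64 for Igf2bp3 with Igf1r and -0.79 for Lin28a with Igf1r.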

How the data were processed

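Total RNA (20 ng per sample) of 14 sorted samples was labelled with Cy3 and hybridised to 1-colour Agilent arrays, and no array repeats a genotype and stage. The scanner files hold, per the file headers, Feature Extraction 10.7.1.1 intensity values (background-subtracted processed signal, grid on mm9) and flags for background and outlier spots. A deposited value table was each array's processed signal divided by a constant and was used only as a check (the SD of the log2 difference was at most 0.000756). From the deposited intensity, log2 processed signal minus each array's 75th percentile was computed, with outlier spots left out and spots of a probe averaged: 59305 spots gave 55681 probes, of which 27656 had 1 gene symbol through a RefSeq accession (GRCm38.p6), none had several and 28025 had none. Probes well above background on at least 2 arrays were fitted with limma 3.58.1 (R 4.3.3), with genotype and stage as additive terms on the 12 non-leukemic arrays, and on all 14 arrays with a leukemia term for ETP-ALL. The Benjamini-Hochberg adjustment ran over all tested probes, and the fit was tested on simulated data. The number of arrays limits the precision. Gene levels use the probe with the highest mean, with other member probes beside it, and from each gene list at most 4 called genes with the largest change were named in a comparison; the list genes plotted were chosen with their values known. The members and lists were chosen with earlier results of these data known. The labels name bone marrow in the sorting protocol but thymus as the source of every sample. No 2 arrays correlated above 0.981 over 91 pairs, so none was treated as a repeat.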

Additional observations from a re-analysis of the deposited data

Results flagged for a closer look

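Among 49 groups of 4 to 10 arrays examined for an array far from the rest, 4 had such an array. Chance would give about 1 group in 20 if the arrays of a group were replicates. In the flagged groups each array had a different genotype, so that rate does not apply to them. For Lin28b the flagged arrays were double-deleted DN1 among the DN1 arrays, at -0.62, and double-deleted DN3 among the DN3 arrays, at -1.35. For the brighter Igf2bp2 probe they were p53-deleted DN2 among the DN2 arrays, at -3.78, and p53-deleted DN3 among the DN3 arrays, at -2.85.

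The effect of Ezh2 loss differed by p53 status, by the limma interaction term, for Lin28b (4.52), Lin28a (3.18) and Igf1r (-2.78). This contrast cannot be told apart from slide, and 44.7% of all probes were called in it.

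The Igf2bp1 probe, which entered no comparison, was above background only in the leukemia of mouse 13, at -1.60.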

How the results depend on the processing

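No paired analysis was possible because the labels give no mouse number for the non-leukemic samples, and each leukemia came from a mouse of its own. The 15 calls on member probes kept their direction under all 280 alternatives run, and 278 stayed past the threshold; the exceptions were Igf1r (limma adjusted p = 0.0626) and Igf2bp3 (limma adjusted p = 0.0608) in double-deleted minus WT within slide 1, where 1 member probe instead of 3 was called. Normexp with quantile normalization gave smaller changes: 2.11 for Igf2bp3 and 0.92 for Lin28b with Ezh2 loss, 2.19 and 1.72 in double-deleted minus WT, 1.91 for Igf2bp3 in Ezh2-deleted minus WT and 1.39 for the Lin28b interaction. These are smaller than the printed bounds, which hold only for the processed signal as scaled here. The slide block could not be fitted for Ezh2-deleted or p53-deleted minus WT, the interaction or ETP-ALL.

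Counts over all probes moved more. With slide as a block Ezh2 loss called 687 probes (1193 as reported), p53 loss 913 (2302), double-deleted minus WT 642 (2201) and DN3 minus DN2 4 (8). Scaling on probes detected on all arrays gave 1425 for p53 loss, 782 higher and 643 lower instead of 927 and 1375, and 1317 for double-deleted minus WT, 905 higher and 412 lower instead of 1134 and 1067. Within slide 1, double-deleted minus WT called 607 and DN3 minus DN2 0; within slide 2, DN2 minus DN1 called 2 (414) and DN3 minus DN2 0. Normexp left DN3 minus DN2 with 0, and no filter on dim probes with 4; without that filter 5 of 12 member probes were called in the interaction. ETP-ALL against all 3 double-deleted arrays called 1084 (718). The causes were not tested.

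Leaving out each array in turn gave 645 to 1588 probes for Ezh2 loss (3 to 4 member probes), 433 to 2029 for p53 loss (1), 6807 to 11148 for Ezh2-deleted minus WT (3 to 4), 7630 to 10868 for p53-deleted minus WT (2 to 3), 456 to 2253 for double-deleted minus WT (3), 11300 to 13814 for the interaction (3 to 4), 152 to 3107 for DN2 minus DN1 (0 to 2), 1 to 22 for DN3 minus DN2 (0) and 115 to 987 for ETP-ALL (0 to 2). Leaving out double-deleted DN2 gave the lowest count for Ezh2 loss, p53 loss, double-deleted minus WT, the interaction and ETP-ALL. A lone array left in an arm was assumed to vary like the others. Signal over background limits Lin28b, Igf2bp1, Igf2bp3 and, among list genes, Irs1, Nr6a1, Igfals and Igf2, whose low values are bounds only. The same holds for those values of Pbx3, Ccnd1, Bcl11a, Igfbp4 and Igfbp6 that were not above background.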
